A study of Bos taurus with 12 samples.

Results

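Genes of innate immune sensing and inflammation, 6 of the 27570 in the count tables, were followed in the liver of Holstein dairy calves: the Toll-like receptors TLR2 (ENSBTAG00000008008) and TLR4 (ENSBTAG00000006240), the cytokines TNF (ENSBTAG00000025471), IL1B (ENSBTAG00000001321) and IL6 (ENSBTAG00000014921), and the chemokine CXCL8 (ENSBTAG00000019716). The set was defined by these Ensembl identifiers, with no threshold on a measured value, and with earlier results of these data known. The study housed Holstein calves in groups, under heat stress (6 calves) or with cooling (6 calves), between birth and weaning, and took a liver biopsy at 42 days of age. Both groups are of 1 breed, and the labels name no other treatment, no sex and no untreated group, so the cooled calves were the only comparison. Total RNA of the biopsies was sequenced, giving 1 table of counts per library. Each library is taken below as 1 calf, from the stated 6 calves per group.

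Toll-like receptors are membrane proteins that recognise conserved microbial molecules. TLR2 binds bacterial lipoproteins and TLR4, with its partner proteins, binds the lipopolysaccharide of Gram-negative bacteria. Both signal through adaptor proteins to the transcription factor NF-kB, which can switch on TNF, IL1B, IL6 and CXCL8. In liver, the resident macrophages called Kupffer cells are a main site of this sensing, since blood from the gut passes them first, and hepatocytes answer the released cytokines, IL6 above all, with acute phase proteins.

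The libraries held 22910846 to 32240168 counts each. Cooled calves 2 and 3 were more alike than any other pair, with a biological coefficient of variation between them of 0.0570 where the other 65 pairs ran from 0.197 to 0.388, so the group comparisons below were repeated with their counts summed into 1 library. The calf numbers only name libraries. A biopsy holds many cell types, and for a gene of a minority cell type fewer cells and less RNA per cell cannot be told apart. The files do not pair identifiers with symbols, and only the 6 genes above could be named, so neither the labelled tissue nor the share of macrophages, neutrophils or other cells was checked against marker genes.

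Enough counts to compare the groups were present for 5 of the 6 genes, by a rule that asks for about 10 counts in at least as many libraries as the smaller group holds. TLR2 had 7933 counts over the 12 libraries, IL1B 4448, TLR4 3542, TNF 788, CXCL8 224 and IL6 2. These totals set the precision of each gene and are not levels to be compared between genes, since they also depend on transcript length. TLR2, TLR4, TNF and IL1B had at least 29 counts in every calf. CXCL8 was at the edge. It reached 10 counts in 6 of 6 heat-stressed calves but in only 3 of 6 cooled calves, so it passed the rule through the group in which it was higher. IL6 did not pass.

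**Figure D1:**
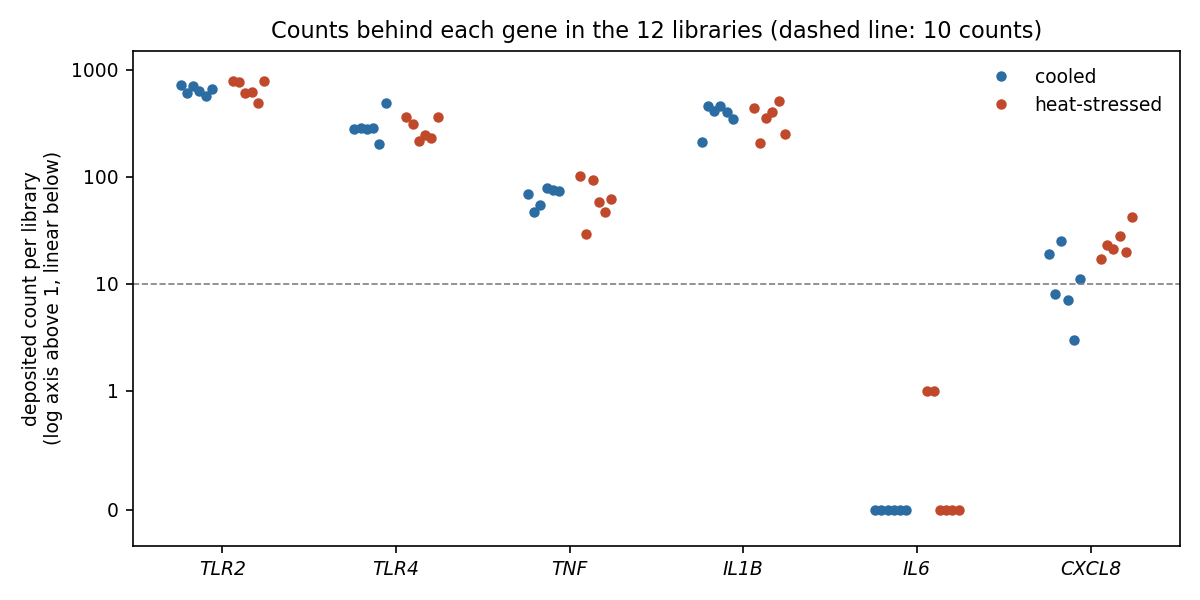
Deposited counts of the 6 genes (y axis, logarithmic above 1 and linear below) in each of the 12 libraries, 6 cooled (blue) and 6 heat-stressed (red). The dashed line marks 10 counts, which TLR2, TLR4, TNF and IL1B exceeded in every library, CXCL8 in 9 libraries and IL6 in 0.

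Of the 5 genes tested, 0 differed between the groups after correction for the number of genes (edgeR's quasi-likelihood test, Benjamini-Hochberg adjusted p under 0.05 over 14924 genes), where the share over all genes was also 0%. With DESeq2, 0 of the 5 passed the same threshold, and 0.0615% of all its genes did. At an unadjusted p under 0.05 in edgeR 1 of the 5 passed, CXCL8, beside 9.37% of all genes. It was higher in heat-stressed calves, as were 5.09% of all genes at that p, and 0 of the 5 were lower, beside 4.28% of all genes. CXCL8 entered the test through its heat-stressed libraries (above), so nothing is read from these counts. In DESeq2 the same 1 of 5 had an unadjusted p under 0.05, beside 8.15% of all genes. The median log2 fold change of the 5, heat-stressed over cooled, was 0.06, beside 0.00 over all genes tested. A 1.5-fold difference in either direction was outside the 95% interval for TLR2, TLR4 and IL1B. A 2-fold difference was outside it for TNF as well, but inside it for CXCL8. These intervals are for single genes, are not adjusted for the number of genes, and count cooled calves 2 and 3 as separate animals. They and the p-values take the calves as independent and do not account for housing in groups.

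TLR2, the lipoprotein receptor, had a similar mean in both groups and a wider range in the heat-stressed calves. Its counts in cooled calves 1 to 6 were 716, 607, 709, 629, 562 and 658. In heat-stressed calves 1 to 6 they were 790, 766, 605, 622, 488 and 781. Scaled to a common library total (CPM, the count of a gene relative to its library's total as adjusted by edgeR's TMM factors), the level ran from 20.2 to 25.7 in cooled calves, with a median of 22.4, and from 18.4 to 31.3 in heat-stressed calves, with a median of 26.1. Heat-stressed calves 1, 2 and 6 lay above every cooled calf, and heat-stressed calves 4 and 5 lay below every cooled calf. The 95% counting intervals of heat-stressed calves 1 (25.2 to 29.0 CPM) and 2 (25.9 to 29.9) overlapped that of cooled calf 3 (23.8 to 27.6). That of heat-stressed calf 6 (29.2 to 33.6) did not. Those of heat-stressed calves 4 (18.1 to 21.3) and 5 (16.8 to 20.2) overlapped that of cooled calf 4 (18.7 to 21.8). The cooled mean was 22.8 CPM ± 1.89 (SD, n = 6) and the heat-stressed mean 24.9 CPM ± 4.98 (SD, n = 6). The log2 fold change was 0.13 (SE 0.143, edgeR adjusted p = 0.704), a 1.09-fold level with a 95% interval of 0.885 to 1.35. An exact permutation test of the difference in mean log2 CPM gave p = 0.426. The coefficient of variation was 8.30% in cooled and 20.0% in heat-stressed calves, and this difference in spread was not tested.

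TLR4, the lipopolysaccharide receptor, had a mean of 10.6 CPM in both groups. Cooled calves 1 to 6 had 281, 285, 277, 284, 203 and 484 counts. Heat-stressed calves 1 to 6 had 362, 311, 214, 247, 230 and 364. The level ran from 7.91 to 16.5 CPM in cooled calves, with a median of 9.76, and from 7.81 to 14.6 CPM in heat-stressed calves, with a median of 10.1. Cooled calf 6 stood highest of all 12 calves at 16.5 CPM, and the other 5 cooled calves lay between 7.91 and 10.5 CPM. Among the heat-stressed calves, calves 1, 2 and 6 lay above those 5, and calf 4, at 7.81 CPM with a counting interval of 6.86 to 8.84 CPM, lay just below the lowest cooled calf at 7.91 CPM. The cooled mean was 10.6 CPM ± 3.01 (SD, n = 6), and the heat-stressed mean 10.6 CPM ± 2.61 (SD, n = 6). The log2 fold change was 0.00 (SE 0.199, edgeR adjusted p = 0.995), with a 95% interval of the fold change from 0.747 to 1.34. Without cooled calf 6 the log2 fold change was 0.17 (edgeR adjusted p = 0.661), and without heat-stressed calf 6 it was -0.11 (edgeR adjusted p = 0.918), so its sign rested on single calves. The exact permutation test of mean log2 CPM gave p = 0.963.

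**Figure D2:**
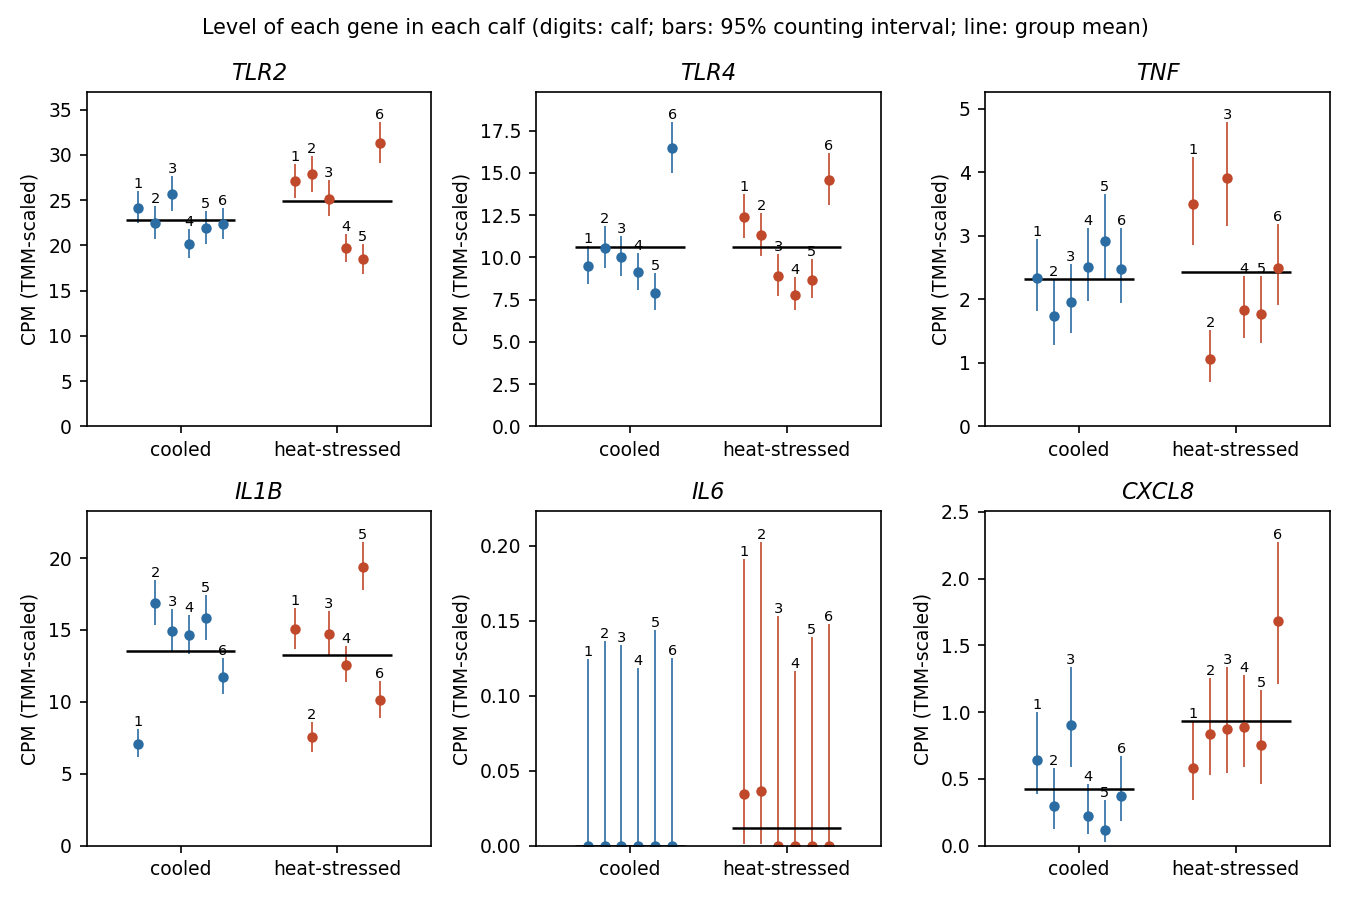
Level of each of the 6 genes in TMM-scaled CPM (linear y axes from 0, a different range in each panel) in 6 cooled (blue) and 6 heat-stressed (red) calves. Digits give the calf, vertical bars the exact 95% Poisson interval of that library's count and horizontal lines the group mean. The groups overlap for all 6 genes, and 4 of 6 cooled calves lie below every heat-stressed calf for CXCL8.

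TNF, a cytokine that macrophages release early after Toll-like receptor signalling, also had similar means, with the lowest and the highest calf both heat-stressed. Cooled calves 1 to 6 had 69, 47, 54, 78, 75 and 73 counts. Heat-stressed calves 1 to 6 had 102, 29, 94, 58, 47 and 62. In CPM the cooled calves ran from 1.74 to 2.92, with a median of 2.41, and the heat-stressed calves from 1.06 to 3.91, with a median of 2.16. Heat-stressed calves 1 and 3 lay above every cooled calf and heat-stressed calf 2 below. The counting intervals of calf 3 (3.16 to 4.78 CPM) and calf 2 (0.707 to 1.52 CPM) did not overlap. Cooled calves averaged 2.32 CPM ± 0.423 (SD, n = 6) and heat-stressed calves 2.43 CPM ± 1.10 (SD, n = 6). The log2 fold change was 0.06 (SE 0.285, edgeR adjusted p = 0.937), with a 95% interval of the fold change from 0.685 to 1.59. The difference in mean log2 CPM had the opposite sign, -0.04 (p = 0.894, exact permutation test). The coefficient of variation was 18.2% in cooled and 45.2% in heat-stressed calves. Counting error alone accounted for 45.8% of the variance among cooled and 7.57% of that among heat-stressed calves. The difference in spread was not tested.

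IL1B, the cytokine that is made as an inactive precursor and cut by inflammasome caspases, varied more than 2-fold within each group, and the group means lay close together. Cooled calves 1 to 6 had 209, 455, 413, 456, 406 and 345 counts. Heat-stressed calves 1 to 6 had 440, 207, 354, 398, 513 and 252. The level was 7.06 to 16.8 CPM in cooled calves, with a median of 14.8, and 7.53 to 19.4 CPM in heat-stressed calves, with a median of 13.7. The lowest cooled calf was calf 1 (7.06 CPM), and the heat-stressed group held low values in calves 2 (7.53 CPM) and 6 (10.1 CPM). Heat-stressed calf 5 was the highest of all 12 at 19.4 CPM. Cooled calves averaged 13.5 CPM ± 3.59 (SD, n = 6) and heat-stressed calves 13.2 CPM ± 4.15 (SD, n = 6), with a log2 fold change of -0.03 (SE 0.235, edgeR adjusted p = 0.963) and a 95% interval of the fold change from 0.693 to 1.39. With cooled calves 2 and 3 summed it was 0.02 (edgeR adjusted p = 0.984). The exact permutation test of mean log2 CPM gave p = 0.896. Counting error made up 3.73% of the variance among cooled and 2.84% of that among heat-stressed calves.

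IL6, the main inducer of hepatic acute phase proteins, had 2 counts in all 12 libraries together. There were 0 counts in 6 of 6 cooled calves and in 4 of 6 heat-stressed calves, and 1 count each in heat-stressed calves 1 and 2. A library with 0 counts allows a level of up to 3 counts, which is from 0.0948 to 0.125 CPM across the libraries, for counting error only. The counting intervals drawn in the plot of levels are two-sided and reach higher, to 0.153 CPM in heat-stressed calf 3, which had 0 counts. In heat-stressed calf 2, with 1 count, the interval reaches 0.203 CPM. No fold is given from 2 counts. In a fit of all 21975 genes with a count, IL6 had an edgeR adjusted p of 0.586. A difference in IL6 between the groups was not detectable at this depth.

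CXCL8, the chemokine also called interleukin 8 that draws neutrophils into tissue, had the largest fold change of the 5 genes tested, from few counts. Cooled calves 1 to 6 had 19, 8, 25, 7, 3 and 11 counts. Heat-stressed calves 1 to 6 had 17, 23, 21, 28, 20 and 42. In CPM the cooled calves ran from 0.117 to 0.905, with a median of 0.335, and the heat-stressed calves from 0.583 to 1.68, with a median of 0.855. Cooled calves 2, 4, 5 and 6 lay below every heat-stressed calf, cooled calves 1 and 3 lay among the heat-stressed calves, and only heat-stressed calf 6 lay above every cooled calf. The groups therefore overlapped, and over all genes tested 0.389% had groups that did not.

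CXCL8 averaged 0.426 CPM ± 0.294 (SD, n = 6) over the cooled calves and 0.936 CPM ± 0.383 (SD, n = 6) over the heat-stressed calves. The log2 fold change was 1.12 (SE 0.426), a 2.17-fold level with a 95% interval of 1.16 to 4.07. The edgeR p was 0.0187 before and 0.524 after adjustment over all genes, and 3.40% of genes had an edgeR p as small or smaller. CXCL8 passed the filter for that test through its heat-stressed libraries, so nothing is read from this p or its rank. In the exact permutation test of mean log2 CPM the p was 0.0238, the smallest of the 6 such tests made here, where the design allows 0.00216. That p is not adjusted for the 6 tests. The difference thus did not pass the correction. Counting error accounted for 17.4% of the variance of CXCL8 among cooled and 24.0% of that among heat-stressed calves. The rest was spread between libraries beyond counting, and its technical part was not measured.

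The size of the CXCL8 difference rested in part on single calves. Without cooled calf 3 the log2 fold change was 1.48, with an edgeR p of 0.00325 and an edgeR adjusted p of 0.692. Without heat-stressed calf 6 it was 0.87, with an edgeR p of 0.0595 and an edgeR adjusted p of 0.841. Over the 12 fits that each left out 1 calf it stayed between 0.87 and 1.48, and the unadjusted edgeR p was under 0.05 in 11 of them. The exact permutation p ran from 0.00433 to 0.0411 over the same 12 settings. These settings reuse the same libraries, and the edgeR fits the same filter, so they are not separate support. With cooled calves 2 and 3 summed into 1 library the log2 fold change was 1.21 (edgeR p = 0.0122, adjusted p = 0.707), with an exact permutation p of 0.00649. Without the filter on low counts it was 1.11 (edgeR adjusted p = 0.586). DESeq2 gave 1.13 (adjusted p = 0.468) and limma-voom 1.28 (adjusted p = 0.480).

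CXCL8 was also the gene in which the near-alike cooled calves 2 and 3 differed most. They had 8 and 25 counts, a 3.06-fold level in calf 3 after scaling (p = 0.00463, exact binomial test of the counts of those 2 libraries, of 5 such tests). The ratio of calf 3 to calf 2 was 1.14 for TLR2 (p = 0.0165, exact binomial test), 1.12 for TNF (p = 0.619, exact binomial test), 0.950 for TLR4 (p = 0.555, exact binomial test) and 0.888 for IL1B (p = 0.0834, exact binomial test). These tests compare 2 libraries and not conditions, take counts as independent and cover counting error only.

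**Figure D3:**
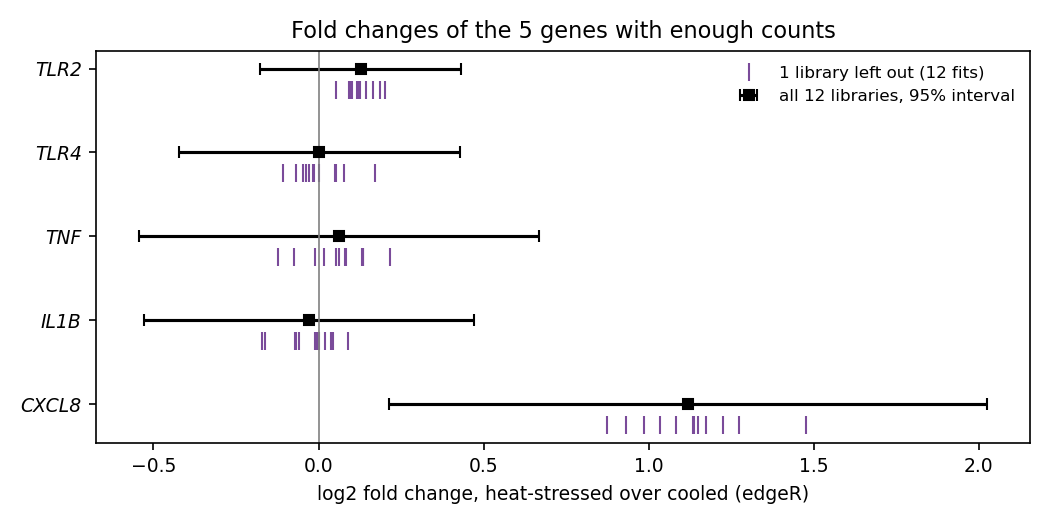
Log2 fold change of heat-stressed over cooled calves (x axis, edgeR) for the 5 genes with enough counts, with its 95% interval (black) and the values from 12 fits that each left out 1 library (purple ticks). The intervals of TLR2, TLR4, TNF and IL1B include 0. That of CXCL8, 0.21 to 2.03 on the log2 scale, does not, and is not adjusted for the number of genes.

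Pairs of the 5 genes were compared across calves to see whether they varied together. Of the 10 pairs, 0 had a Benjamini-Hochberg adjusted p under 0.05 for Pearson's r of log2 CPM over the 12 calves (permutation test, 100000 resamples), and 0 had an unadjusted p under 0.05 (1 did as deviations from the group means). These tests count cooled calves 2 and 3 as separate animals. With their counts summed, 0 of the 10 pairs again had an adjusted p of r under 0.05. The closest pair was the 2 receptors, with r = 0.57 (permutation p = 0.0518, adjusted 0.328) and Spearman's rho = 0.68 (permutation p = 0.0189, adjusted 0.189). With cooled calves 2 and 3 summed r was 0.59 (permutation p = 0.0547, adjusted 0.465) and rho 0.67 (permutation p = 0.0276, adjusted 0.276). Without heat-stressed calves 5 and 6, the farthest from the TLR2 median, r was 0.38 (permutation p = 0.287) and rho 0.58 (permutation p = 0.0855), over the narrower range of TLR2 that was left. As deviations from the group means, r was 0.59 (permutation p = 0.0440, adjusted 0.396) and rho 0.67 (permutation p = 0.0205, adjusted 0.205). The deviations were shuffled over all 12 calves with no allowance for the group means removed, so these p-values can be too small. Within the heat-stressed calves r was 0.88 (p = 0.0222, exact permutation test, adjusted 0.431 over 20 such relations within groups), with rho = 0.89. Within the cooled calves r was 0.08 and rho 0.43, where calf 6 combined the highest TLR4 level with a TLR2 level near the group median. That the groups differ in this relation was not tested. The only other relation within a group with an unadjusted p under 0.05 was that of TLR2 and CXCL8 in the cooled calves, with r = 0.84 and rho = 0.89 (p = 0.0431, exact permutation test of r, adjusted 0.431). It rests on 3 to 25 CXCL8 counts per cooled calf. Cooled calves 2 and 3 count in it as separate animals, and it was not run with them summed. Over all 12 calves r of TLR2 and CXCL8 was 0.50 (permutation p = 0.0983, adjusted 0.328) and rho 0.44 (permutation p = 0.154, adjusted 0.573), and without heat-stressed calves 5 and 6 r was 0.49 (permutation p = 0.147). With cooled calves 2 and 3 summed r was 0.47 (permutation p = 0.139) and rho 0.34 (permutation p = 0.314).

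For TLR2 and IL1B r was -0.50 (permutation p = 0.0978, adjusted 0.328) and Spearman's rho = -0.41 (permutation p = 0.193, adjusted 0.573), and without heat-stressed calves 5 and 6 r was -0.31 (permutation p = 0.392). A ratio of counts within a library does not depend on scaling. The ratio of IL1B to TLR2 counts ran from 0.270 in heat-stressed calf 2 to 1.05 in heat-stressed calf 5, and that of IL1B to TLR4 from 0.666 to 2.23 in the same calves. In cooled calves these ratios ran from 0.292 to 0.750 and from 0.713 to 2.0. TLR2 to TLR4 ran from 1.36 in cooled calf 6 to 2.83 in heat-stressed calf 3. IL1B and TNF, both NF-kB targets, had r = 0.31 (permutation p = 0.321, adjusted 0.547), with Spearman's rho = 0.06 (permutation p = 0.870, adjusted 0.955), and without heat-stressed calves 2 and 3 r was -0.17 (permutation p = 0.631). CXCL8 and IL1B had r = -0.35 (permutation p = 0.264, adjusted 0.547), with Spearman's rho = -0.34 (permutation p = 0.286, adjusted 0.573), and without cooled calf 1 and heat-stressed calf 2 r was -0.40 (permutation p = 0.252). As deviations from the group means the same pair had r = -0.43 (permutation p = 0.158, adjusted 0.396) and rho = -0.60 (permutation p = 0.0443, adjusted 0.222). The limit given above for p-values of deviations holds here too.

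**Figure D4:**
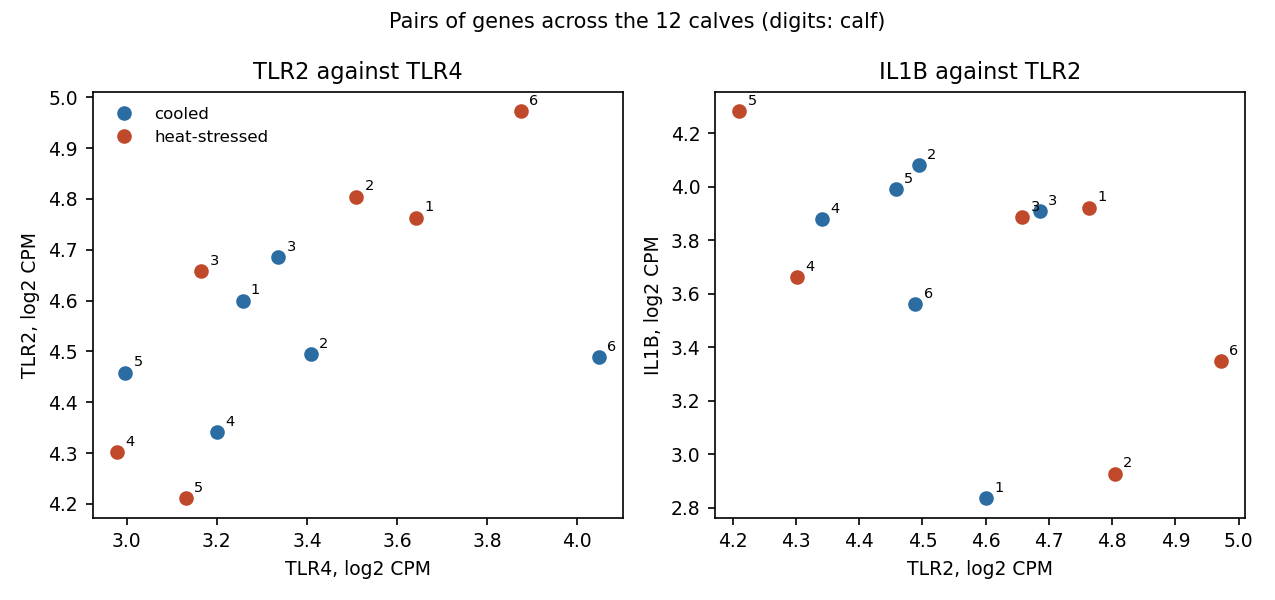
TLR2 against TLR4 (left) and IL1B against TLR2 (right) in log2 CPM for 6 cooled (blue) and 6 heat-stressed (red) calves, with digits giving the calf. Over the 12 calves r is 0.57 in the left panel and -0.50 in the right panel, and neither passes correction over the 10 pairs.

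The libraries with the highest TLR4 and lowest IL1B values also shared features of the whole profile, with exceptions. The first principal component of log2 CPM, computed without the 6 genes, held 31.5% of the variance and gave a positive score to 5 libraries, cooled calves 1 and 6 and heat-stressed calves 1, 2 and 6. Those 5 held 4 of the 4 lowest IL1B levels and 4 of the 4 highest TLR4 levels. The exceptions were heat-stressed calf 1, with IL1B at 15.1 CPM among the higher levels, and cooled calf 1, with TLR4 at 9.49 CPM, below cooled calves 2 and 3, whose scores were negative. Their TMM factors ran from 1.02 to 1.09 and 18452 to 18977 genes had a count, where the other 7 libraries had factors from 0.867 to 1.04 and 18174 to 18565 genes. Heat-stressed calves 1, 2 and 6, whose TLR2 levels lay above every cooled calf, had scores of 52.3, 43.8 and 55.7. Cooled calves 1 and 6, with scores of 13.8 and 10.3, had TLR2 at 24.2 and 22.4 CPM. Both lay below cooled calf 3, at 25.7 CPM with a score of -28.6. The part of these library features in the levels of TLR2, TLR4 and IL1B was not tested. The cut at 4 levels was chosen after seeing the data, and how many other genes follow this component was not counted.

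Among 13572 other genes with at least 10 counts in every library, the closest pattern over the 12 calves had a Spearman rho of 0.965 with TLR4, 0.965 with IL1B, 0.958 with TLR2 and 0.888 with TNF. These are the highest of many and describe these libraries only. The genes could not be named, and CXCL8 and IL6 were not compared in this way because of their low counts.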

How the data were processed

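The deposited values are whole-number counts per Ensembl gene, not normalized, in 1 table per library. Per the submitters' processing notes the authors used HISAT2 and HTSeq on build ARS-UCD1.2, after Trim Galore 0.4.4 and FastQC 0.11.7. The strand setting and annotation release are not given in the sources, so counts of overlapping or antisense genes cannot be separated. Libraries were grouped by the treatment label and numbered in listing order. Nothing beyond the stated 6 calves per group ties a library to an animal, so p-values may measure a partly technical spread.

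Counts were fitted in R 4.3.3 with edgeR 4.0.16 (filterByExpr, TMM, glmQLFit and glmQLFTest, two-sided), keeping 14924 of 27570 genes, with Benjamini-Hochberg adjustment over all of them. Alternatives used DESeq2 1.42.0 and limma 3.58.1. Log2 CPM used a prior count of 2. Exact permutation tests (two-sided) of the groups ran over 924 assignments with all 12 libraries. Fewer arrangements were possible with a library left out, with the pair summed or within 1 group. Correlations over both groups used 100000 resamples. Intervals of single counts are exact Poisson at 95% and cover counting error only. Scripts were tested on simulated data. The 6 genes, lists and tests were chosen with earlier results of these data known, and the DESeq2 fit on summed libraries, the count ratios, the test of the alike pair and the component scores were added after seeing the data. All 6 genes were named by rule. The 6 symbols were set with the identifiers when the genes were chosen. The RefSeq gene table (ARS-UCD2.0) held the 6 symbols but matched 0 of 27570 identifiers, so the pairing was not checked, and planned lists of pathway genes and cell type markers were not used here.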

Additional observations from a re-analysis of the deposited data

Results flagged for a closer look

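Over 10 sets of 6 calves (5 genes in 2 groups), the gap from the highest or lowest calf to its neighbour was set against Dixon's 95% critical value, which chance exceeds in about 1 of 20 sets. It was exceeded in 2 sets. Cooled calf 6 stood at 16.5 CPM for TLR4, far above the other cooled calves. Heat-stressed calf 6 stood highest in its group for CXCL8, at 1.68 CPM with a counting interval of 1.21 to 2.28 CPM. The intervals of heat-stressed calves 2, 3 and 4 overlapped it, and those of calves 1 and 5 did not. The TLR2 level of heat-stressed calf 6, 31.3 CPM, was also the highest of the 12.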

How the results depend on the processing

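The TLR2 and CXCL8 differences kept their sign under every alternative run, 20 for TLR2 and 19 for CXCL8, and 0 of the 5 genes passed an adjusted p of 0.05 in any (CXCL8 edgeR, DESeq2 or limma adjusted p from 0.264 to 0.841). CXCL8 had no value where at least 1 CPM was asked for in 6 libraries. Fold changes near 0 changed sign, on the log2 scale: TLR4 was -0.0089 without the filter, -0.00040 with DESeq2, -0.0059 with cooled calves 2 and 3 summed and -0.0050 with both. TNF was -0.061 with limma-voom. IL1B was 0.0054 with upper-quartile scaling, 0.021 with the pair summed (0.018 in mean log2 CPM) and 0.024 with DESeq2 on it. Leaving out 1 calf gave -0.11 to 0.17 for TLR4, -0.12 to 0.22 for TNF and -0.17 to 0.090 for IL1B in edgeR, and -0.089 to 0.14, -0.20 to 0.16 and -0.21 to 0.11 in mean log2 CPM. Without the 2 farthest calves r was -0.073 for TLR2 and TNF, -0.14 for TLR4 and TNF and -0.17 for TNF and IL1B. Over all genes DESeq2 called 7 higher and 6 lower, and 2 and 1 with the pair summed, none of them among the 5. Leaving out 1 calf, edgeR called 0 to 1 higher, the 1 without heat-stressed calf 3, and the genes with an unadjusted p under 0.05, 1399 in all 12 libraries, numbered from 841 to 2578. The lowest came without heat-stressed calf 6, the next (857) when calf 1 of that group was dropped, and the highest on removing its calf 3. The cause was not tested. The groups hold different calves, so no paired analysis was made, and the labels carry no replicate numbers. Depth limits IL6, with 2 counts in all.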
